A study of Homo sapiens with 24 samples.

Results

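The 10 protein-coding genes of the high mobility group (HMG) families were followed in PPC1 cells, an established human prostate cancer cell line, before and after the formation of polyploid giant cancer cells (PGCC). The members were chosen by name, as the rows of the count table named HMGB1, HMGB2, HMGB3, HMGA1, HMGA2, HMGN1, HMGN2, HMGN3, HMGN4 and HMGN5 whose gene type was protein coding. They made up 10 of 48162 genes in the table, of which 20312 were protein coding. All 10 passed the filter on low counts in every comparison.

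RNA-seq was performed on 24 libraries, with 6 libraries in each of 4 conditions. Untreated parental cells (UT) received neither radiation nor drug, and UT with LCL521 received 5 μM LCL521 for 5 h before harvest. PGCC were induced by 8 Gy radiation on day 2, were harvested on day 5 and were enriched on a 20 micron filter. PGCC with LCL521 received the same radiation and filtration, with 5 μM LCL521 for 5 h before harvest. LCL521 is a pro-drug that inhibits acid ceramidase (ASAH1). All conditions came from 1 cell line, with no engineered genetic change described. Parental cells were not irradiated, so radiation, time after radiation and selection by size cannot be told apart.

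HMG proteins are small, abundant chromatin proteins that bind DNA or nucleosomes with little regard to sequence and alter how DNA bends and how tightly nucleosomes pack. HMGB proteins bend DNA through HMG boxes, and HMGB1 can also leave the cell and act as a danger signal. HMGA proteins bind the minor groove of AT-rich DNA through AT-hooks and are abundant in embryonic and transformed cells, whereas HMGN proteins bind the nucleosome core and counteract linker histone H1.

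In the coordinates of the count table (hg19), HMGB2 was listed on the minus strand at chr4:174252846-174256276 and HMGN4 on the plus strand at chr6:26538633-26546482, and these genes had the largest rise and the largest fall of the 10 in PGCC. Their closest relatives in the group, HMGB1 (chr13:31032884-31191734) and HMGN2 (chr1:26798941-26802463), did not pass the test. The sequences below show how far reads of these relatives could be told apart.

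The coding sequences of HMGN2 and HMGN4 were both 273 bases long in GENCODE v29 (GRCh38) and aligned without a gap. Capitals mark the 37 bases at which they differed, which left 86.4% identity and a longest identical run of 20 bases.

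HMGN2: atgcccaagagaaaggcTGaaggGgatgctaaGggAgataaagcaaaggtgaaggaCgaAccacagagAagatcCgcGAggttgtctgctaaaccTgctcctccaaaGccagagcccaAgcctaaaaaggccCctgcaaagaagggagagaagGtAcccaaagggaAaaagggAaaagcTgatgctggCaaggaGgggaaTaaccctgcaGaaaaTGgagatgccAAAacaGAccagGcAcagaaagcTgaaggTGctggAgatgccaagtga

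HMGN4: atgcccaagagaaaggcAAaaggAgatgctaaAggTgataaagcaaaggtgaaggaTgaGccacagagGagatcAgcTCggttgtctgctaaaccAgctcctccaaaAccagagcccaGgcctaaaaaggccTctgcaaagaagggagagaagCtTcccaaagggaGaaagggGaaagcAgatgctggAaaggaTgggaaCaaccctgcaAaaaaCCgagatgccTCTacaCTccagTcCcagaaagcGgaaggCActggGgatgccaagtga

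The coding sequences of HMGB1 and HMGB2 were 648 and 630 bases long, with 77.1% identity over the 630 aligned bases and a longest identical run of 29 bases. The first 240 bases held 52 differences, in capitals.

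HMGB1: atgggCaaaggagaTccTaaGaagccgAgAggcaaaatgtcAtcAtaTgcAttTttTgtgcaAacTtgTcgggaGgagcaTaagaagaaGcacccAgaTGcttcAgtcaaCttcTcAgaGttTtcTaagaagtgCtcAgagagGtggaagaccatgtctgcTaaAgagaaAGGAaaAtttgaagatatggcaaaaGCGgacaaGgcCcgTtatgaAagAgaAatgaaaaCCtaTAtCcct

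HMGB2: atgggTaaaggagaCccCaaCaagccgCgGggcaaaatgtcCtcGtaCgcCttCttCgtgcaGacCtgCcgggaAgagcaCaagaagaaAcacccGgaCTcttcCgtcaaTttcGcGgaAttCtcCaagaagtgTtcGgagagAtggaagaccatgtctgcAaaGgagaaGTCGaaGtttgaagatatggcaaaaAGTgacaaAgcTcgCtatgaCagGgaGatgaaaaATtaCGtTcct

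No stretch of 100 bases in the longest principal transcript of a member occurred in a transcript of another member. HMGN4, HMGB2, HMGA1, HMGA2 and HMGN5 had 0 stretches of that length in any other annotated gene. HMGN2 shared 11.8% of such stretches with 4 pseudogenes, HMGB1 shared 7.63% with 3 and HMGN3 shared 5.82% with 1 gene that is not a pseudogene, so counts of these genes are less certain. The count table also listed 147 rows of HMG pseudogenes, of which 73 had any count, and together they reached at most 3.39% of the counts of the member in a library (HMGB1). Opposite-strand genes overlapped HMGA2 and HMGN3. The largest, RPSAP52, held at most 7.34% as many counts as HMGA2, and whether counting used strand was not given in the sources used here.

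Library totals ranged from 14835246 to 19906601 counts, and the lowest count of any member in a library was 231, for HMGB2. Libraries of replicates 4 and 5 stood apart in all 4 conditions: on the second principal component (16.5% of variance) their scores lay between -51.2 and -13.3, against 4.11 to 30.5 in the other replicates. Results are therefore also given for replicates 1, 2, 3 and 6 and for replicates 4 and 5. KRT8, KRT18 and KRT19, keratins of epithelial cells, were present in every library at 50.6 counts per 1000000 counts of the library (CPM) or more, whereas EPCAM did not exceed 0.852 CPM. KLK3 and TMPRSS2, genes of prostate luminal cells, were both under 1 CPM in all 24 libraries, so the labelled tissue of origin was not visible in these markers. Summed leukocyte markers reached 0.464 to 2.97 CPM in UT and 2.84 to 4.43 CPM in PGCC, mainly from PTPRC, with 3 of 4 markers under 1 CPM. Summed fibroblast markers reached 50.8 to 133 CPM in UT and 82.3 to 209 CPM in PGCC, mainly from COL1A2, with DCN at or near 0, and their part in the results was not tested. In bulk RNA, fewer expressing cells and less RNA per cell cannot be told apart.

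The members differed widely in abundance. Per kilobase of listed gene length (RPKM), HMGA1 was the most abundant member in all 4 conditions, with a median of 851.6 RPKM in UT and 1043 RPKM in PGCC. In UT it was followed by HMGN2 (189 RPKM), HMGB1 (123 RPKM) and HMGN1 (81.1 RPKM), and the ranges of these 4 genes did not overlap. HMGN3 (58.6 RPKM) and HMGN4 (54.2 RPKM) overlapped each other in UT, and HMGB3 (31.3 RPKM) came next. HMGN5 (14.8 RPKM), HMGB2 (14.4 RPKM) and HMGA2 (10.6 RPKM) were the least abundant and overlapped in that order. In PGCC the first 5 places were held by the same genes in the same order, but HMGB2 moved from rank 9 to rank 6, with a median of 44.7 RPKM. HMGN4 moved from rank 6 to rank 8, with a median of 37.3 RPKM, and HMGB2, HMGB3 and HMGN4 then overlapped. The listed lengths equal or exceed those of the principal transcripts for every member but HMGB1, and HMGN1 took rank 2 instead of rank 4 in UT when the principal transcript length was used.

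**Figure D1:**
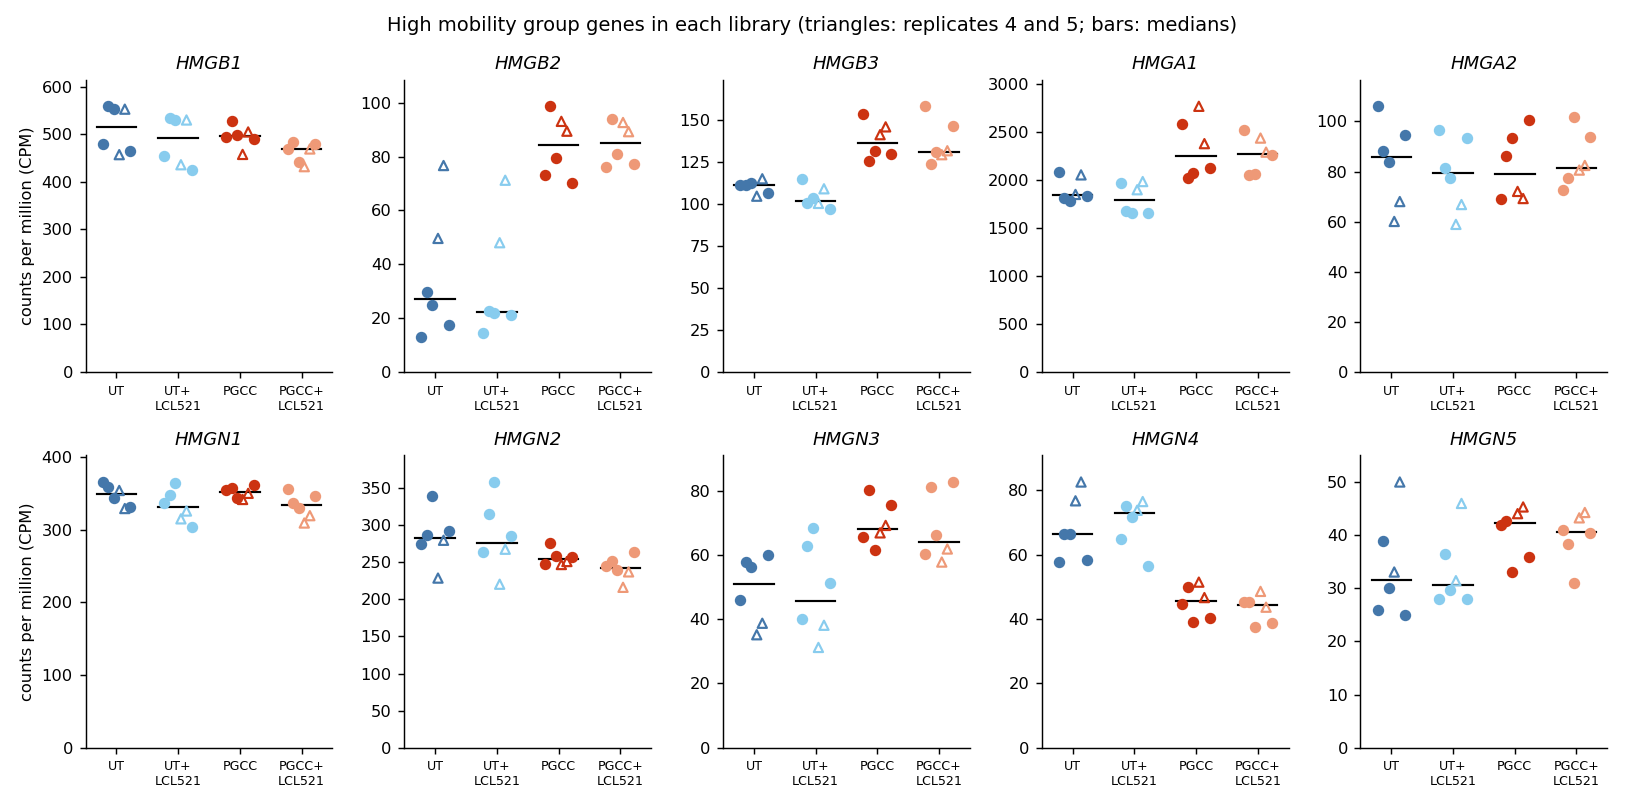
CPM (y axis, linear from 0, scaled by TMM) of each member in the 24 libraries by condition (x axis). Points are libraries, open triangles are replicates 4 and 5 and bars are medians. HMGB2 lay between 13.0 and 76.7 CPM in UT and between 70.3 and 98.7 CPM in PGCC, whereas HMGN4 lay at 57.8 CPM or more in UT and at 51.5 CPM or less in PGCC.

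To determine which HMG genes differ between parental cells and PGCC, 13812 genes were tested with edgeR's quasi-likelihood test. In PGCC, 4 of the 10 members rose (HMGB2, HMGB3, HMGA1 and HMGN3), 1 fell (HMGN4) and 5 did not pass the adjusted threshold of 0.05. Over all genes tested, 47.4% passed, with 23.1% higher and 24.3% lower, so 5 of 10 members is close to the share of all genes. CPM ranges of UT and PGCC did not overlap for 3 members, against 26.8% of all genes tested. The median log2 fold change was 0.14 over the members and -0.03 over all genes.

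HMGB2, an HMG-box protein known to be produced mainly by dividing cells, changed most. Its level in UT was 13.0, 29.6, 24.8, 49.6, 76.7 and 17.3 CPM in replicates 1 to 6. In PGCC it was 73.2, 98.7, 79.5, 93.1, 89.5 and 70.3 CPM. The 4 parental libraries below 30 CPM were replicates 1, 2, 3 and 6, and the highest parental library, replicate 5, overlapped the lowest PGCC libraries. The log2 fold change was 1.26 ± 0.34 (SE, n = 6 per condition, edgeR, adjusted p = 0.00816), a 2.39-fold rise with a 95% interval of 1.43 to 3.99. HMGB2 was higher in PGCC in 6 of 6 same-numbered pairs. The size of the rise depended on the replicates, with a log2 fold change of 1.94 ± 0.21 (SE) without replicates 4 and 5 and of 0.53 ± 0.18 within them (edgeR, adjusted p = 5.18e-06 and 0.0337).

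The spread of HMGB2 between libraries also differed by condition. The highest UT library held 5.89 times the lowest, and the SD of log2 CPM in UT exceeded that of 98.2% of the 11936 genes with at least 10 counts in every library. In PGCC the highest library held 1.40 times the lowest, and the SD was at the 54.9th percentile. In UT the other 9 members lay at or below the 71.3 percentile, where HMGN5 was. HMGB3 and HMGN1 lay at 0.4 and 0.9, among the steadiest genes in UT. In PGCC HMGB3 lay at 17.9 and HMGN1 at 0.1. The percentiles were not matched for abundance.

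HMGB3, the third HMG-box member, is known from embryonic and hematopoietic cells. It lay between 105 and 115 CPM in UT, with a median of 112 CPM, and between 126 and 154 CPM in PGCC, with a median of 137 CPM. The conditions did not overlap, and the log2 fold change was 0.33 ± 0.07 (SE, edgeR, adjusted p = 0.000954). HMGB1, the archetype of the family, had medians of 516 CPM in UT and 496 CPM in PGCC, and the ranges overlapped. Its log2 fold change was -0.04, with a 95% interval of -0.19 to 0.12. This leaves room for only small changes in its scaled share of the counts. As for every member, the amount of RNA per cell was not measured.

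HMGA1, the most abundant member, ranged from 1779 to 2079 CPM in UT, with a median of 1839 CPM, and from 2017 to 2766 CPM in PGCC, with a median of 2252 CPM. The conditions overlapped only in that the highest parental libraries exceeded the lowest PGCC libraries, and all 6 pairs were higher in PGCC. The log2 fold change was 0.30 ± 0.08 (SE, edgeR, adjusted p = 0.00969). HMGA2, the embryonic relative of HMGA1, had medians of 86.0 CPM in UT and 79.1 CPM in PGCC. Its ranges overlapped almost fully, and its log2 fold change was -0.02, with a 95% interval of -0.33 to 0.29. HMGA2 was low in replicates 4 and 5 of UT, at 60.1 and 68.0 CPM, whereas the other parental libraries held 83.8 CPM or more.

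Among the HMGN genes, HMGN4 fell and HMGN3 rose. HMGN4, a close relative of HMGN2, had levels of 57.8, 66.3, 66.4, 76.7, 82.6 and 58.3 CPM in UT. In PGCC these were 44.7, 49.9, 39.1, 51.5, 46.7 and 40.3 CPM. Every PGCC library lay below every parental library, and the log2 fold change was -0.58 ± 0.11 (SE, edgeR, adjusted p = 0.000566), or 0.669 of the parental level with a 95% interval of 0.570 to 0.786. The log2 fold change was -0.50 without replicates 4 and 5 and -0.70 within them. HMGN3 ranged from 35.2 to 60.1 CPM in UT, with a median of 51.1 CPM, and from 61.6 to 80.4 CPM in PGCC, with a median of 68.1 CPM. These ranges did not overlap, and the log2 fold change was 0.52 ± 0.13 (SE, edgeR, adjusted p = 0.00542). Replicates 4 and 5 were the lowest parental libraries for HMGN3, and the log2 fold change was 0.88 in them and 0.38 in the other replicates.

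HMGN1 and HMGN2, the abundant and broadly expressed nucleosome binding members, did not pass the test. HMGN1 had medians of 349 CPM in UT and 352 CPM in PGCC and a log2 fold change of 0.03, with a 95% interval of -0.09 to 0.14. HMGN2 had medians of 283 CPM in UT and 254 CPM in PGCC and a log2 fold change of -0.14, with a 95% interval of -0.32 to 0.04. HMGN5, an X-linked member with a long acidic tail, had medians of 31.5 CPM in UT and 42.2 CPM in PGCC. Its log2 fold change was 0.26 ± 0.16 (SE, edgeR, adjusted p = 0.19), and it was higher in PGCC in 5 of 6 pairs. With the replicate number as a block, HMGN5 passed the threshold at 0.30 (edgeR, adjusted p = 0.0481), and 5 members were higher and 1 lower in that fit, against 27.9% and 28.3% of all genes (56.2% in all). Without replicates 4 and 5 it was 0.37 (adjusted p = 0.0345).

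**Figure D2:**
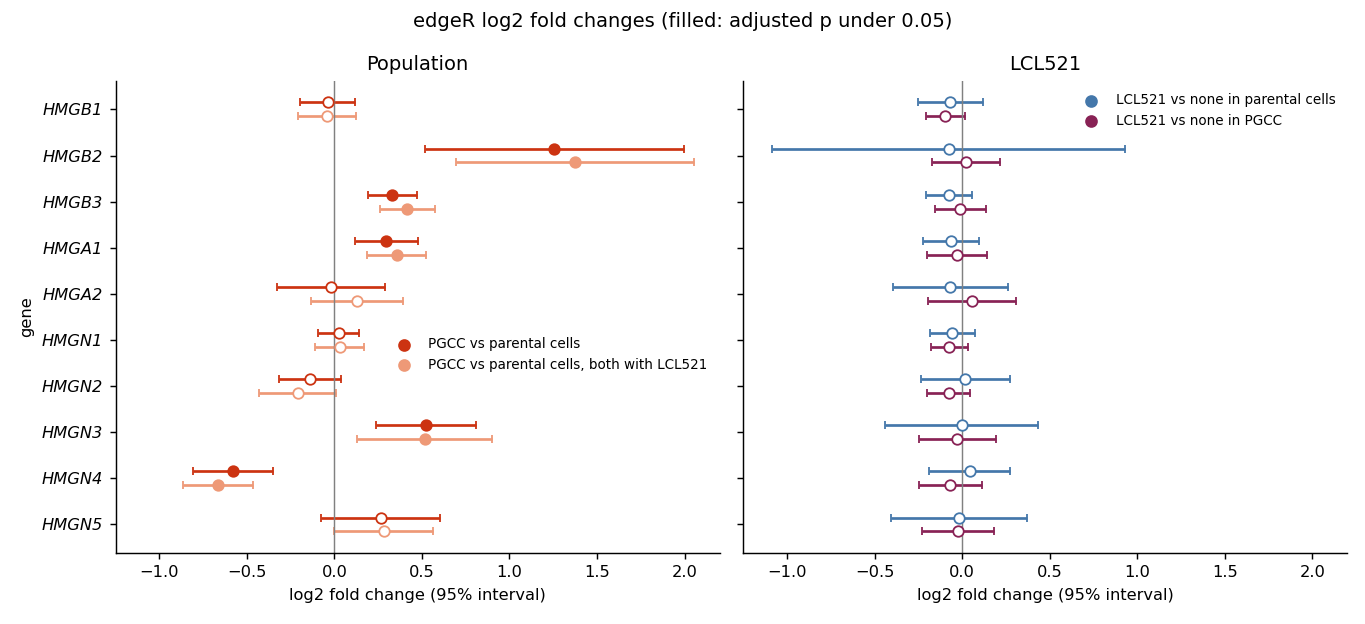
Log2 fold changes (x axis) of the 10 members (y axis) by edgeR with 95% intervals, for PGCC against parental cells (left) and LCL521 against none (right); filled points passed an adjusted p of 0.05. HMGB2 lay at 1.26 and 1.37 and HMGN4 at -0.58 and -0.67 in the population comparisons, while all LCL521 estimates lay between -0.10 and 0.06.

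PGCC and parental cells were also compared in the presence of LCL521, with 12 libraries that the first comparison did not use but that were harvested in parallel with it. Again 4 of 10 members were higher and 1 lower, and they were the same 5 genes. Of 13818 genes tested, 48.9% passed, with 25% higher and 23.9% lower. HMGB2 ranged from 14.6 to 71.2 CPM in UT with LCL521, with a median of 22.2 CPM, and from 76.0 to 93.9 CPM in PGCC with LCL521, with a median of 85.2 CPM. Here the conditions did not overlap, and the log2 fold change was 1.37 ± 0.32 (SE, edgeR, adjusted p = 0.00257). Without replicates 4 and 5 it was 2.06, and within them 0.62. With the replicate number as a block it was 1.59 ± 0.25 (SE, edgeR, adjusted p = 0.000537). HMGB3 rose by 0.42 ± 0.07 (SE) and HMGA1 rose by 0.36 ± 0.08 on the log2 scale (edgeR, adjusted p = 0.000335 and 0.00182).

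HMGN4 ranged from 56.3 to 76.5 CPM in UT with LCL521 and from 37.4 to 48.6 CPM in the treated PGCC. It fell by 0.67 ± 0.09 on the log2 scale (SE, edgeR, adjusted p = 5.10e-05), and all 6 pairs were lower. HMGN3 rose by 0.52 ± 0.18 (SE, edgeR, adjusted p = 0.0279), but its conditions overlapped and 5 of 6 pairs were higher. Without replicate 1, 5 or 6 this call was lost at 0.49, 0.48 and 0.45 (adjusted p = 0.0651, 0.0614 and 0.0868). CPM ranges did not overlap for 4 members (HMGB2, HMGB3, HMGA1 and HMGN4), against 28.1% of all genes tested. HMGN5 was at 0.28 ± 0.13 (SE, edgeR, adjusted p = 0.0916) and passed with the replicate block at 0.30 (adjusted p = 0.0333), where 29.5% of all genes were higher and 26.8% lower, and without replicates 4 and 5 at 0.34 (adjusted p = 0.0285). HMGA2 was at 0.13 (adjusted p = 0.397), with 0.023 without replicates 4 and 5, and passed in those replicates alone at 0.38 (adjusted p = 0.00895). HMGN2 was at -0.21 (adjusted p = 0.107) and was lower in PGCC in 6 of 6 pairs; it passed without replicates 4 and 5 at -0.26 (adjusted p = 0.0439).

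To compare relatives without regard to library scaling, the ratio of counts of each member to HMGB1, HMGA1 or HMGN1 was taken within each library. The ratios are not corrected for length and were compared only between conditions, with an exact two-sided permutation test and adjustment over 7 ratios and 2 contrasts. HMGB2 held 2.71% to 13.9% as many counts as HMGB1 in UT and 14.3% to 20.3% in PGCC. The mean log2 ratio was higher by 1.55 in PGCC (exact permutation test, adjusted p = 0.00505), and the conditions did not overlap, unlike the CPM of HMGB2 itself. HMGB3 to HMGB1 was higher by 0.36 (exact permutation test, adjusted p = 0.00505) without overlap.

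HMGN4 held 15.8% to 25.1% as many counts as HMGN1 in UT and 11.2% to 15.1% in PGCC, a mean log2 ratio that fell by 0.60 (exact permutation test, adjusted p = 0.00505). HMGN3 to HMGN1 was higher by 0.52 (exact permutation test, adjusted p = 0.00866). HMGA2 to HMGA1 was lower in PGCC in 6 of 6 pairs, by a mean of -0.30 on the log2 scale, and did not pass over libraries (exact permutation test, adjusted p = 0.200). In the exact test over sign changes of paired differences, with the replicate number as a block, it passed (adjusted p = 0.0437). Its unadjusted p there was the smallest that 6 pairs allow, 0.0312, so whether it passed depended on the other ratios adjusted with it. With LCL521 HMGA2 to HMGA1 was higher in 3 of 6 pairs, at a mean of -0.22. It passed neither over libraries nor with the block (exact tests, adjusted p = 0.242 and 0.25). The 4 ratios that passed in PGCC against UT passed again with LCL521, and HMGN2 to HMGN1 passed as well, at -0.23 (exact permutation test, adjusted p = 0.0303). Without replicates 4 and 5, no ratio passed in either contrast, since 4 libraries against 4 gave adjusted p of 0.0571 or more.

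**Figure D3:**
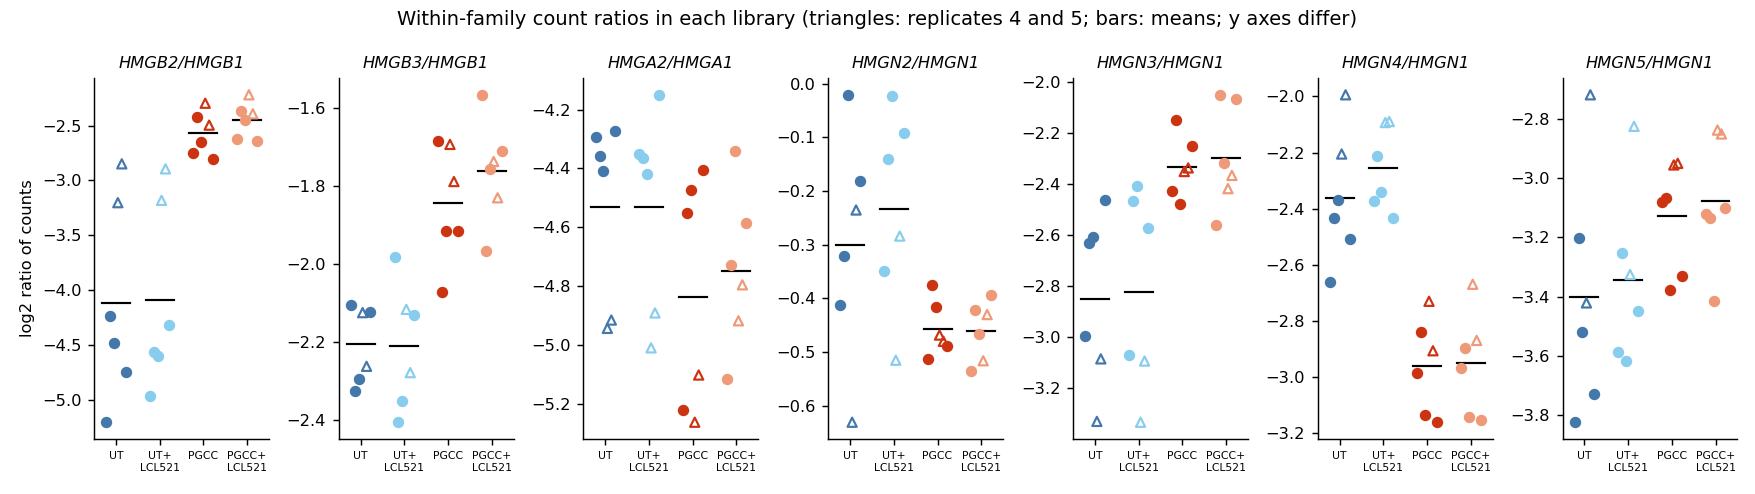
Log2 ratio of counts (y axis; scales differ between panels) of 7 members to HMGB1, HMGA1 or HMGN1 in each library by condition (x axis); points are libraries, open triangles replicates 4 and 5, bars means. For HMGB2/HMGB1, HMGB3/HMGB1 and HMGN4/HMGN1, PGCC and UT did not overlap, with or without LCL521.

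No member passed the test of LCL521 against none, in parental cells or in PGCC, although HMGB1 was lower with the drug in 6 of 6 pairs in each population. In parental cells 0 of 10 members passed with edgeR, and 0 did at an unadjusted p under 0.05. Over all 13277 genes 0% passed with edgeR, 71 genes had an unadjusted p under 0.05, and DESeq2 also called 0. The CPM ranges overlapped for all 10 members, against 0.0301% of all genes without overlap. Log2 fold changes of the members ran from -0.08 (HMGB2) to 0.04 (HMGN4). In this unpaired fit the 95% interval for HMGB2, whose parental libraries spread most, ran from -1.09 to 0.93. That for HMGB1, at -0.07, ran from -0.26 to 0.12. Differences between same-numbered libraries ran from -0.13 to -0.061 for HMGB1 and from -0.14 to -0.019 for HMGA2, all 6 of them below 0 for both genes. With the replicate block the interval for HMGB1 ran from -0.14 to 0.0017 and that for HMGB2 from -0.21 to 0.097 (edgeR, adjusted p = 0.414 and 0.81). In that fit 69 genes were higher and 46 lower over all genes, and no member was among them.

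In PGCC, 0 of 10 members passed, against 0.00707% of 14151 genes, which was 1 gene. The CPM ranges again overlapped for all 10, against 0.0848% of all genes without overlap. Log2 fold changes of the members ran from -0.10 (HMGB1) to 0.06 (HMGA2), and 0 members had an unadjusted p under 0.05. HMGB2 was at 0.02, with a 95% interval of -0.17 to 0.21, so a change in HMGB2 of the size seen between populations lay outside the interval. HMGB1 was lower with LCL521 in 6 of 6 pairs, at 432 to 484 CPM against 458 to 529 CPM without it, and the log2 difference had a 95% interval of -0.21 to 0.01. With the replicate block it was -0.097, with an interval of -0.16 to -0.034, and did not pass after adjustment (edgeR, adjusted p = 0.122). In that fit 3 members, HMGB1, HMGN1 and HMGN2, had an unadjusted p under 0.05, all lower with LCL521. Over all genes 153 (1.08%) were higher and 81 (0.572%) lower, and no member was among them.

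The effect of LCL521 was then compared between PGCC and parental cells by an interaction over all 24 libraries. Of 14555 genes, 0% passed with edgeR, 60 had an unadjusted p under 0.05, and DESeq2 also called 0. For the members the interaction ran from -0.11 (HMGN4) to 0.13 (HMGA2) on the log2 scale, with 0 unadjusted p under 0.05. That of HMGB2 was 0.10, with a 95% interval of -0.91 to 1.11 in this fit, which did not pair libraries by replicate number. No member passed the interaction under any alternative, the replicate block included.

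The genes whose log2 CPM followed HMGB2 most closely over the 24 libraries were NEK2, HMMR and NDC80, with Pearson's r of 0.985, 0.983 and 0.980 among 7910 protein-coding genes. NEK2 is a kinase of centrosome separation, HMMR a spindle protein and NDC80 a kinetochore subunit. After subtraction of the condition means, which removes the difference between PGCC and parental cells, the closest were NEK2, NDC80 and NUF2, at 0.990, 0.976 and 0.973. NEK2 ranged from 4.63 to 24.2 CPM in UT and from 37.3 to 50.2 CPM in PGCC, and its 2 highest parental libraries were replicates 5 and 4, as for HMGB2. The libraries share conditions and replicate numbers, so these values describe likeness only.

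For HMGN4 the closest over the 24 libraries were JAGN1, MRPS16 and RABL3, at 0.968, 0.961 and 0.959. JAGN1 is a membrane protein of the endoplasmic reticulum, MRPS16 a subunit of the mitochondrial ribosome and RABL3 a small GTPase. After subtraction of the condition means they were TFB1M, NTPCR and ZFAND6, at 0.937, 0.919 and 0.907, so no gene was among the 3 closest by both measures, unlike for HMGB2.

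**Figure D4:**
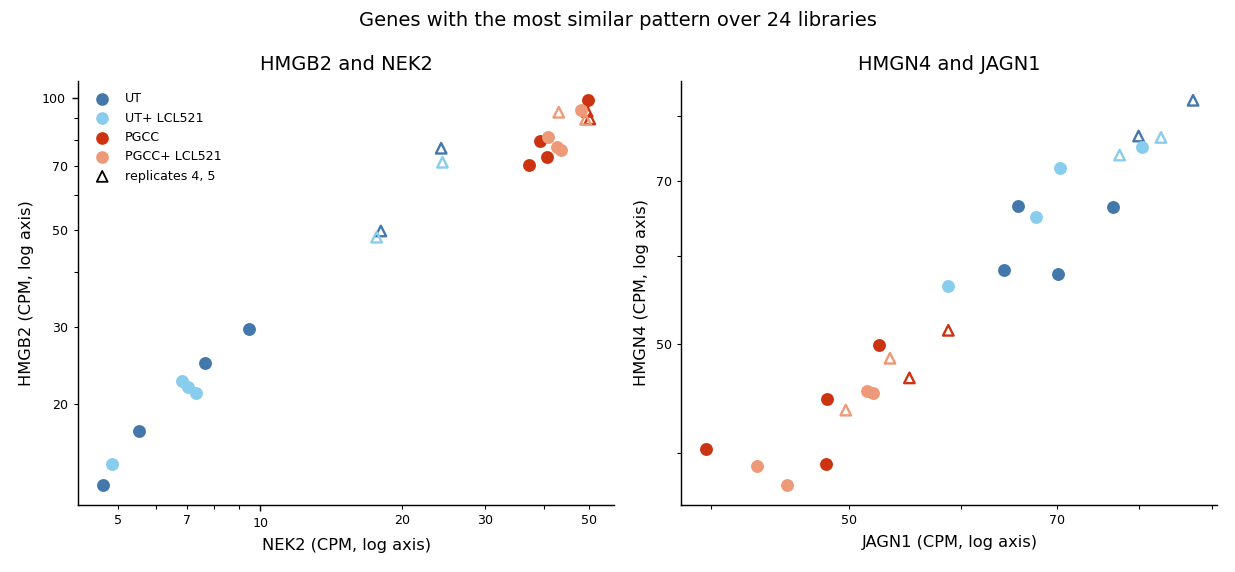
CPM of HMGB2 against NEK2 (left) and of HMGN4 against JAGN1 (right), on log axes, with 1 point per library, colored by condition; open triangles are replicates 4 and 5. The parental replicates 4 and 5 lay above the other parental libraries for both HMGB2 and NEK2, and below every PGCC library for NEK2, whereas HMGB2 in replicate 5 overlapped the lowest PGCC libraries; r was 0.985 over the 24 libraries.

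Some pairs of members also varied together about their condition means. After subtraction of condition means, HMGN2 and HMGN3 had a Pearson's r of 0.873 over the 24 libraries, HMGN4 and HMGN5 of 0.783, HMGB2 and HMGN5 of 0.756 and HMGB2 and HMGN4 of 0.702. HMGA2 ran opposite to HMGN4, at -0.797, and to HMGB2, at -0.740. These pairs had the largest absolute r, and others lay near 0, such as HMGB2 and HMGB3 at -0.064. Each r pooled all conditions, and libraries with the same replicate number are paired. HMGB2 spread more in parental cells (SD of log2 CPM 0.95 in UT and 0.86 with LCL521) than in PGCC (0.20 and 0.13). Correlation within single conditions was not tested. In UT, replicates 4 and 5 were the highest libraries for HMGB2 and HMGN4 and the lowest for HMGA2 and HMGN3, whereas replicate 5 for HMGN2 and replicate 4 for HMGN5 lay among the other libraries. HMGB2 and HMGN4 thus varied together about their condition means, although between parental cells and PGCC HMGB2 rose and HMGN4 fell.

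Genes of related function were examined as lists, by their counts and medians. All 16 G2/M genes rose in PGCC, with a median log2 fold change of 2.16, against -0.03 over all genes. KIF20A, a mitotic kinesin, was at 3.33 ± 0.35 (SE) and AURKB, the kinase of the chromosomal passenger complex, at 2.72 ± 0.25 (edgeR, adjusted p = 4.59e-06 and 1.14e-06). MKI67 rose by 2.19 and TOP2A by 2.03 on the log2 scale, both more than HMGB2. Of 13 S phase genes, 9 rose and 1 fell, led by RRM2 at 2.74 and TYMS at 1.43, enzymes of deoxynucleotide and thymidylate synthesis. The median was 0.93, and over all genes tested 23.1% rose and 24.3% fell.

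The SET complex, which contains HMGB2 and acts on DNA, and the nucleosome chaperone FACT were mostly lower, with 5 of 7 genes that fell and 1 that rose. Over all genes tested 24.3% fell and 23.1% rose, and the median of the list was -0.40. SET went from a mean of 960 CPM in UT to 548 CPM in PGCC, a log2 fold change of -0.80 ± 0.06 (SE, edgeR, adjusted p = 3.38e-07). TREX1, an exonuclease of the complex, rose by 1.09 ± 0.32 (SE, edgeR, adjusted p = 0.0117) at a mean of 2.32 CPM in UT. HMGB2 and SET thus changed in opposite directions.

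Of 34 other HMG-box genes, 26 were tested, of which 6 rose and 8 fell, close to the 23.1% and 24.3% of all genes, with a median of -0.16. Those with the largest changes were SOX12, at -1.34, and LEF1, at -1.23, both DNA-binding transcription factors. SSRP1, a FACT gene, was counted both here and in the list of the SET complex and FACT. Of 10 linker histone genes, whose products HMGN and HMGA proteins displace, 3 were tested: HIST1H1C rose by 0.71, H1FX fell by 1.03 and H1F0 was at 0.02 without passing.

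Of 10 receptors and partners of HMGB1, 3 were tested and 1 rose, TLR4, a receptor for extracellular HMGB1, at 1.85 ± 0.29 (SE, edgeR, adjusted p = 0.000129). AGER, another receptor, averaged 1.15 CPM in UT and 0.990 CPM in PGCC and did not pass. Of the LIN28 and IGF2BP genes, RNA-binding proteins tied to HMGA2 expression, 2 were tested, and IGF2BP3 fell by 0.23 on the log2 scale (edgeR, adjusted p = 0.0391) but was at -0.15 with LCL521 (adjusted p = 0.202). Of 16 senescence-associated genes, 13 were tested, of which 7 rose and 1 fell, against 23.1% and 24.3% of all genes. The median was 2.06, with IL8 at 5.05 and IL1B at 4.48. With the replicate block 8 rose and 1 fell, against 27.9% and 28.3% of all genes. The gene that fell there was CDKN2A, at -0.90 (edgeR, adjusted p = 5.71e-05). In PGCC against parental cells with LCL521, 16 of 16 G2/M genes were again higher, and 10 of 13 S phase, 1 of 7 SET complex and FACT, 7 of 26 other HMG-box and 8 of 13 senescence-associated genes. The numbers lower were 0, 1, 5, 8 and 1. Over all genes tested in that contrast, 25% were higher and 23.9% lower. With LCL521 against none, 0 genes of these lists passed in either population in the unpaired test (edgeR). With the replicate block, an alternative for the lists that was added after seeing the data, 1 of 81 genes tested passed in parental cells and 7 of 83 in PGCC, against 0.866% and 1.65% of all genes. In parental cells this was GDF15, a stress-induced cytokine, at 0.34 (edgeR, adjusted p = 0.0394). In PGCC the chemokine IL8 fell by 0.39 on the log2 scale (edgeR, adjusted p = 2.18e-05). Among the genes that passed there, IL1B and IGFBP3 were also lower and GDF15 and CDKN2B higher, all of the senescence-associated list, and CENPF, a G2/M gene, was higher.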

How the data were processed

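Total RNA of 24 PPC1 cultures was sequenced. The authors deposited read counts per gene, made with STAR and HTSeq on hg19 per the submitters' processing notes and the methods; the counts were not normalized. The annotation release is not given in the sources used here. Computations used R 4.3.3, edgeR 4.0.16, limma 3.58.1, DESeq2 1.42.0 and Python 3.11.15. Genes were filtered with filterByExpr (minimum count 10, minimum total count 15) and scaled by TMM, and the 12 libraries of 2 conditions were compared by the quasi-likelihood test of edgeR, with p-values adjusted over all genes tested by the Benjamini-Hochberg procedure; the interaction used all 24. SE is the log2 fold change divided by the square root of F. CPM values were scaled by TMM over all 24 libraries, and log2 CPM carries a prior count of 2. The count model was tested on simulated data with independent libraries, which cannot show how it performs on paired libraries.

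Members, lists and tests were chosen with earlier results of these data known. All 10 members were named. In each list the 2 genes with the largest change past the threshold were named, with MKI67 and TOP2A. AGER, CDKN2A, H1F0, PTPRC, SSRP1 and the list genes called for LCL521 with the replicate block were named after their values were seen. Some genes of the marker and gene lists are not reported here. For the largest rise and fall, the 3 closest genes by each measure were named, among protein-coding genes that averaged 4 log2 CPM or more. The methods describe parallel harvests of the 4 conditions at 6 independent times, and deviations of same-numbered libraries from their condition means correlated at 0.171 to 0.813, over 0.1 in every pair, so replicate numbers were taken to pair libraries. No libraries of a condition agreed within sampling noise (chi-square per degree of freedom 4.69 to 110). Alternatives were other tools, scalings and filters, one fit of all libraries, the replicate block, pseudogene rows summed with their member, and libraries left out. The transcript lengths, the paired differences by replicate group and the replicate block for the lists were added after seeing the data. Intervals are at 95% and give the uncertainty of the log2 fold change, estimated from the spread between libraries. They do not give the range of single libraries.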

Additional observations from a re-analysis of the deposited data

Results flagged for a closer look

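In 68 sets of 6 libraries, the CPM of each member and each of the 7 ratios in each condition, the gap of the highest or lowest library to its neighbor never exceeded the critical value of the test of Dixon for 6 values. The high HMGB2 values of replicates 4 and 5 in parental cells were 2 libraries and so could not stand alone in that test.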

How the results depend on the processing

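PGCC against parental cells: HMGB2, HMGB3, HMGA1 and HMGN4 kept direction and call under every alternative, in both contrasts, and HMGN3 in the contrast without LCL521. HMGB2 ran from 0.53 (replicates 4 and 5 alone) to 1.94 (these left out) without LCL521, and from 0.62 to 2.06 with it. With library totals as the only scaling, 60.2% of calls over all genes were higher without LCL521, against 48.7% with TMM. The direction of members that had not passed changed for HMGB1 with library totals (0.057 without and 0.015 with LCL521), for HMGA2 without LCL521 with library totals (0.076), with at least 10 counts in every library (0.017), in replicates 4 and 5 alone (0.14) and without replicate 1 (0.10; -0.064 to 0.10 over single replicates left out), and for HMGN1 with LCL521 without a filter (-0.016), in replicates 4 and 5 alone (-0.022) and without replicate 6 (-0.020; -0.020 to 0.061 over single replicates left out). With LCL521, 2 members were lower with all 24 libraries in one fit, with the replicate block in DESeq2 and without replicates 4 and 5. HMGN5 also passed without replicate 5 (0.38 without and 0.36 with LCL521) and, with LCL521, with library totals (0.34), and HMGA2 passed with LCL521 in replicates 4 and 5 alone (0.38).

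The replicate block, the fit for paired libraries, gave 69 genes higher and 46 lower with LCL521 in parental cells (84 and 75 in DESeq2), and 153 and 81 in PGCC (111 and 74 in DESeq2); among the members it changed the call of HMGN5 with edgeR, and of HMGN5 and HMGN2 in DESeq2, and no other. For LCL521 in PGCC, DESeq2 gave 7 genes higher, limma-voom, the fit of all libraries and both replicate subsets gave 0, and leaving out 1 replicate gave 0 to 1. Of the members named there, HMGN4 was at -0.086 in parental cells in replicates 4 and 5 alone, HMGA2 at -0.016 in PGCC without them, and the interaction of HMGN4 at 0.014 in them alone.

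Ratios without replicates 4 and 5 did not pass, at 2.01 for HMGB2/HMGB1, 0.32 for HMGB3/HMGB1, 0.35 for HMGN3/HMGN1 and -0.54 for HMGN4/HMGN1 without LCL521, and at 2.09, 0.47, 0.38 and -0.70 with it, where HMGN2/HMGN1 was at -0.30; fewer libraries raise the smallest p that the exact test allows. With the block HMGA2/HMGA1 passed at -0.30. With 1 replicate left out, calls were gained by HMGN2/HMGN1 (-0.22 to -0.11) and HMGN5/HMGN1 (0.18 to 0.38) without LCL521 and by HMGN5/HMGN1 (0.22 to 0.32) with it, and lost with it by HMGN2/HMGN1 (-0.27 to -0.18) and HMGN3/HMGN1 (0.45 to 0.62). With principal transcript lengths, medians in UT moved to 94.1 RPKM for HMGB1, 19.2 for HMGA2, 252 for HMGN1 and 238 for HMGN2; the cause of the other shifts was not tested.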
